A study of Mus musculus with 11 samples.

Results

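The p53 pathway was followed here through 10 genes: Trp53, Mdm2, Cdkn1a, Ccng1, Bax, Pmaip1, Trp53inp1, Phlda3, Zmat3 and Eda2r. They were taken by symbol, and all 10 were found among the 24411 gene symbols of the count tables. The set was chosen by measured levels of Cdkn1a and Eda2r in these libraries, with earlier results known, and filled with genes of the same pathway. Values in the 2 comparisons taken as having guided that choice, genotype within the corpus callosum (Cdkn1a) and callosum against neurospheres (Eda2r), are therefore given as descriptions, without p-values for the 10 genes.

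RNA was sequenced from dissected corpus callosum, a myelinated tract that connects the hemispheres, and from neurospheres, which are cultured spheres of neural stem cells and progenitors from the subventricular zone. Mice were 8 to 10 weeks old and either wild type or labelled Bmal1-/-. Bmal1, listed as Arntl, encodes the clock factor that pairs with CLOCK. The series concerns clocks in these 2 tissues during demyelination. There were 3 wild-type and 3 Bmal1-/- neurosphere libraries, all from cells kept for 1 week in medium with heparin (2 ug/ml) and EGF (20 ng/ml). There were 3 wild-type and 2 Bmal1-/- callosum libraries. Which part of Bmal1 was deleted, whether animals were pooled, and whether each library had its own animal or culture is not in the labels. The spread behind every p-value is therefore that between libraries and could be technical.

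The protein p53, encoded by Trp53, is a transcription factor that is held at low levels by the ubiquitin ligase MDM2 and is stabilised after DNA damage and other stress. It then raises transcription of its targets, among them Mdm2 itself, which closes a negative feedback loop. Targets include inhibitors of the cell cycle, promoters of cell death and regulators of survival signalling, and in neural stem cells p53 and Cdkn1a are known to restrain self-renewal and proliferation.

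The region around the start site was examined for the p53 decamer, the 10-base element that occurs as a pair in p53 response elements, and for the E-box CACGTG, the element bound by BMAL1 with CLOCK. RefSeq promoters of GRCm38.p6, from 250 bases before to 50 bases after the start, were matched by symbol for 7 of the 10 genes (Trp53, Mdm2, Cdkn1a, Ccng1, Bax, Phlda3 and Eda2r), with 2 starts 2790 bases apart for Cdkn1a. Both strands were searched. The decamer occurred in 5 of the 7 genes and in 8.36% of all 32851 promoters of the same length. CACGTG occurred in 3 of the 7 genes, against 7.15% of all promoters. A match is a match of letters and was not tested as a bound site. The next 4 promoters belong to Cdkn1a and Eda2r, which the comparisons turn on, and to the feedback gene Mdm2 and the target Ccng1. They are written 5′ to 3′ on the strand of the gene, with matches in capitals (the decamer in Cdkn1a, Mdm2 and Ccng1, CACGTG in Eda2r).
Cdkn1a, upstream start, chr17:29090729-29091028, plus strand: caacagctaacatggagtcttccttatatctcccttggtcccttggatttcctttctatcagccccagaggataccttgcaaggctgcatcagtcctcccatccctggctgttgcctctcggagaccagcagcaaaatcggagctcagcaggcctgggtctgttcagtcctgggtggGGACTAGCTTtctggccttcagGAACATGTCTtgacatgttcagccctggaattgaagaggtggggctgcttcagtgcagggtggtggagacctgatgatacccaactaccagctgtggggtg
Mdm2, chr10:117710709-117711008, minus strand: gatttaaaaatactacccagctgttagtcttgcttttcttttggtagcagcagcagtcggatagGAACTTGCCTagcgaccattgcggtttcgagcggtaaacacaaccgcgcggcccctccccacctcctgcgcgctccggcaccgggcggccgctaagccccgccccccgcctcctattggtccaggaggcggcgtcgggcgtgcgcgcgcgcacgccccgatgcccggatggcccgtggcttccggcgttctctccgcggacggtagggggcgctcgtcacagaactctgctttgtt
Ccng1, chr11:40755237-40755536, minus strand: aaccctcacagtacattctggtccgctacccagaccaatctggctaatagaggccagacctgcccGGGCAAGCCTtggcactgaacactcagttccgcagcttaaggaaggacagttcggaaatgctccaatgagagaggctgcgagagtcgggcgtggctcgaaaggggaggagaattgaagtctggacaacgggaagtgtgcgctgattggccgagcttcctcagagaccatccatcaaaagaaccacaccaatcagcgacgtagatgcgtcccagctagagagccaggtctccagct
Eda2r, chrX:97377160-97377459, minus strand: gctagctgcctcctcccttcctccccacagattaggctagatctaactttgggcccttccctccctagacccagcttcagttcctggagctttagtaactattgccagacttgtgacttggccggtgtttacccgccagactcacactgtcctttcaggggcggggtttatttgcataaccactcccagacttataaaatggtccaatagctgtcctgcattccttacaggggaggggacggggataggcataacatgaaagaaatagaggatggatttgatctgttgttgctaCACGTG
Counted from the start site, the decamers began at -73 and -51 in Cdkn1a, at -186 in Mdm2 and at -185 in Ccng1, and the E-box of Eda2r began at 45. Trp53 held the decamer GGACTTGCCC at -75 and CACGTG at 11. Bax held AGGCAAGCTT at -201 and CACGTG at -9 and 36. No match overlapped another. Neither element was found in these letters for Phlda3 or for the downstream start of Cdkn1a.

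The depth was 17450270 to 19717848 gene counts in neurosphere libraries and 17513165 to 17836955 in callosum libraries. Levels are in CPM, the count per TMM-scaled library size with 1 set of factors for all 11 libraries, so that 3 counts, the level that a count of 0 still allows, correspond to 0.131 to 0.136 CPM in neurospheres and 0.202 to 0.211 CPM in callosum, for counting error only. Arntl was not lower in libraries labelled Bmal1-/-, at 44.0 ± 5.56 CPM (SD, n = 3) in wild-type and 43.6 ± 4.05 CPM (SD, n = 3) in Bmal1-/- neurospheres, while in callosum the wild-type level was 36.3 ± 3.36 CPM (SD, n = 3) and the Bmal1-/- level 36.7 ± 5.84 CPM (SD, n = 2). Since the deleted part is not given, this level does not check the labels, and the genotypes are used as labelled. One library stood apart, Bmal1-/- neurosphere replicate 1, with 22.6% of reads unmapped against 13.7% to 16.2% in the other neurosphere libraries. Genotype differences of the 10 genes and of the wider pathway in neurospheres are given with and without it. Wild-type neurosphere replicate 1 also differed from its group. Its counts lay 34.9 and 45.9 chi-square units per degree of freedom from replicates 2 and 3, which differed by 6.85. Each of 8 neuron markers was detected in callosum, and their summed level was 17374 to 23470 CPM there against 84.1 to 104 CPM in neurospheres. Summed proliferation markers were at 909 to 1564 CPM in neurospheres and 31.7 to 47.7 CPM in callosum.

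In wild-type libraries the p53 pathway genes were all lower in callosum than in neurospheres. All 10 were called lower, a call being an adjusted p under 0.05 in edgeR's quasi-likelihood test over 14733 genes, and none had overlapping ranges. As background, 85.8% of all genes tested were called, 43.8% lower and 42% higher, and 44.9% lay lower without overlap against 42.9% higher. The count of 10 is therefore read as a description. Genes nearly absent from callosum, such as Eda2r, passed the filter on low counts only through neurospheres, so they could only be called lower. Sizes differed widely between the genes, from a log2 difference of -0.62 for Phlda3 to -9.24 for Trp53inp1, with Eda2r, nearly absent from callosum, given as a ratio of counts. In bulk RNA, fewer cells of a type and less RNA per cell cannot be told apart.

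Trp53, the transcription factor itself (chromosome 11, 69580348 to 69591873, plus strand), had 74.3, 81.0 and 81.4 CPM in the 3 wild-type neurosphere libraries and 44.6, 53.7 and 51.2 CPM in wild-type callosum. The difference was -0.65 ± 0.11 (SE) in log2. Mdm2, its ubiquitin ligase (chromosome 10, 117688875 to 117710758, minus strand), had 130, 142 and 150 CPM in neurospheres and 35.3, 55.2 and 44.0 CPM in callosum, a log2 difference of -1.64 ± 0.16 (SE). Both genes were thus well detected in both sources, and the lowest neurosphere library lay above the highest callosum library. Stretches of 50 bases shared with another gene made up 3.88% of Trp53, mostly with Trp53-ps, and 1.21% of Mdm2, and reads mapping to several places were not counted.

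The 2 genes tied to cell cycle arrest were among the most abundant transcripts of the neurospheres. Cdkn1a, the inhibitor of cyclin-dependent kinases (chromosome 17, 29090979 to 29100722, plus strand), had 697, 1106 and 1126 CPM in wild-type neurospheres and 28.2, 30.6 and 27.4 CPM in wild-type callosum. Ccng1, cyclin G1, which binds a subunit of protein phosphatase 2A (chromosome 11, 40748552 to 40755309, minus strand), had 867, 943 and 949 CPM in neurospheres and 18.1, 17.2 and 16.1 CPM in callosum. Neurosphere replicate 1 was the lowest of its group for both genes. Log2 differences were -5.07 ± 0.21 (SE) for Cdkn1a and -5.73 ± 0.12 (SE) for Ccng1. An exon of Cdkn1a is overlapped on the opposite strand by AC167363.2. Its reads cannot be separated by strand, since 49.6% to 50.8% of counts made by strand lay on the first strand.

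Of the genes that promote cell death, Bax, whose protein permeabilises the outer mitochondrial membrane (chromosome 7, 45461695 to 45466903, minus strand), had 80.8, 84.1 and 84.3 CPM in wild-type neurospheres and 47.6, 44.9 and 46.3 CPM in wild-type callosum. Pmaip1, which encodes the BH3-only protein NOXA, had 18.9, 29.7 and 33.6 CPM in neurospheres and 1.18, 0.202 and 0.416 CPM in callosum. The callosum values of Pmaip1 rest on 17, 3 and 6 counts, so their spread is mostly one library above the others. Log2 differences were -0.83 ± 0.09 (SE) for Bax and -5.49 ± 0.43 (SE) for Pmaip1. Stretches shared with Gm45808 made up 8.51% of Bax.

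Trp53inp1, a stress-induced nuclear protein that promotes p53 activity (chromosome 4, 11156441 to 11174379, plus strand), had 388, 382 and 417 CPM in wild-type neurospheres and 0.348, 0.873 and 0.693 CPM in wild-type callosum. Over the summed counts, 26538 against 28, it was 618-fold higher in neurospheres (exact 95% interval 428 to 930, counting error only). Eda2r, a receptor of the tumour necrosis factor receptor family for the ectodysplasin isoform EDA-A2 (chromosome X, 97333837 to 97377234, minus strand), had 120, 169 and 182 CPM in neurospheres. In wild-type callosum it had 0, 1 and 0 counts, below the level of 3 counts in every library. The ratio over summed counts, 10531 against 1, was 6868 (exact 95% interval 1232 to 271292, counting error only), and in the Bmal1-/- libraries, 7802 against 2, it was 1626 (450 to 13427). Eda2r was thus at the limit of detection in all 5 callosum libraries and well detected in all 6 neurosphere libraries.

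Phlda3, a pleckstrin-homology protein that inhibits AKT (chromosome 1, 135766085 to 135769134, plus strand), had 80.0, 91.2 and 109 CPM in wild-type neurospheres and 53.8, 65.6 and 61.6 CPM in wild-type callosum. Zmat3, a zinc-finger protein that binds RNA (chromosome 3, 32334792 to 32365665, minus strand), had 348, 401 and 408 CPM in neurospheres and 108, 105 and 104 CPM in callosum. Phlda3 had the smallest source difference of the 10 genes, -0.62 ± 0.14 (SE) in log2, and Zmat3 differed by -1.86 ± 0.10 (SE).

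**Figure D1:**
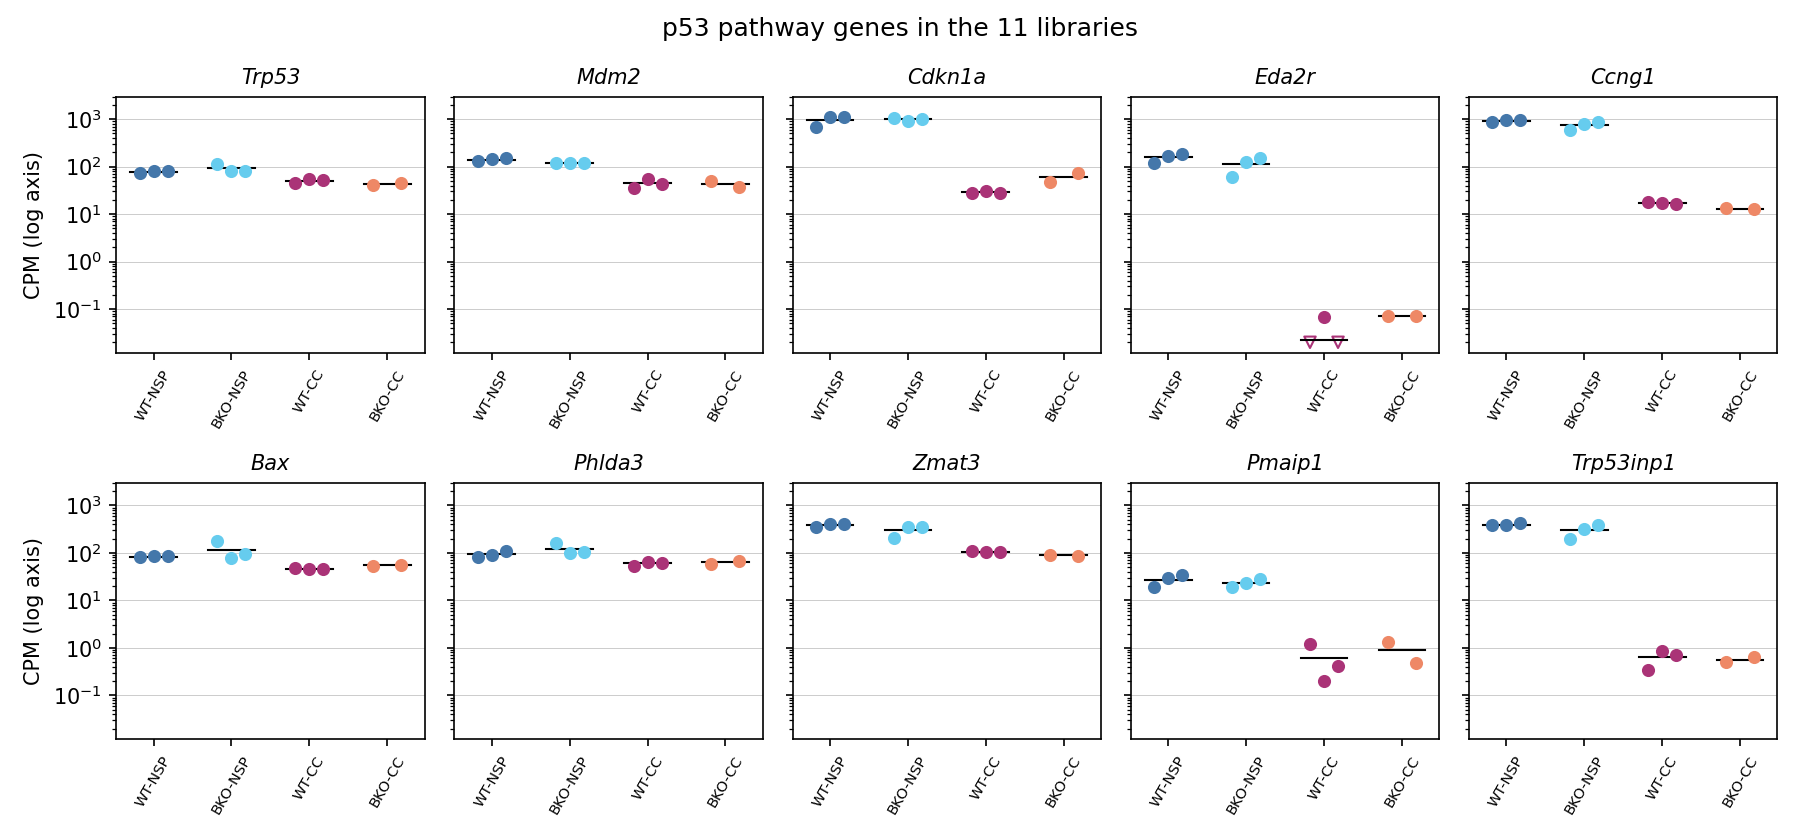
Each panel plots 1 gene as CPM (log axis) in the 4 groups, with 1 point per library (n = 3, 3, 3 and 2), the group mean as a line, and open triangles at the bottom of the axis for libraries with 0 counts. Neurospheres lie above callosum for all 10 genes, and in the Cdkn1a panel the 2 Bmal1-/- callosum libraries, at 47.3 and 72.2 CPM, lie above wild-type callosum at 27.4 to 30.6 CPM.

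Divided by the length of the longest transcript, Cdkn1a stood first of the 10 in wild-type neurospheres at 469 CPM per kb, rank 30 of 24066 genes. Ccng1 followed at 262 CPM per kb, rank 73, then Bax at 75.5, Trp53inp1 at 72.9, Phlda3 at 65.2, Zmat3 at 49.5, Mdm2 at 44.8, Eda2r at 33.1, Trp53 at 24.1 and Pmaip1 at 10.0 CPM per kb. In wild-type callosum the order was another one: Bax and Phlda3 came first at 42.1 and 42.0 CPM per kb, and Cdkn1a was the fifth at 13.8 CPM per kb, rank 4400. Trp53, Mdm2, Cdkn1a and Zmat3 lay at 15.2, 14.3, 13.8 and 13.5 CPM per kb there. With the mean transcript length instead, Zmat3 and Mdm2 changed places in neurospheres and Cdkn1a and Zmat3 in callosum, so these neighbours have no firm order. Division by length does not remove a trend with GC content, which is described next, so both orders may carry it.

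The source difference of all genes moved with the GC content of their transcripts. Over 14653 genes Spearman's rho was 0.572, a description across genes, which share the libraries and are not independent. Among 10 equal groups by GC content, the median log2 difference ran from -2.82 in the lowest to 1.90 in the highest. Eda2r, Ccng1 and Trp53inp1 belong to the group lowest in GC, and Bax and Phlda3 to the highest. Cdkn1a, at 54.4% GC, belongs to a group with a median of 1.00, against its own -5.07. Each of the 10 genes lay below the median of its GC group. With per-gene offsets for GC content and length, an alternative added after the data were seen, all 10 remained lower and called. The values became -6.17 for Cdkn1a, -3.58 for Ccng1, -6.77 for Trp53inp1, -10.54 for Eda2r, -3.29 for Bax and -2.97 for Phlda3. Those of Trp53, Mdm2, Zmat3 and Pmaip1 became -1.71, -0.93, -1.58 and -3.53. The shift was smallest for Zmat3. Over all genes the median log2 difference was -0.06 with TMM, -0.30 with the offsets and -0.57 with library size alone, and all 10 genes kept direction and call under each. Of all genes tested, 33.8% were then called higher and 52.2% lower with library size alone, and 34.2% and 47.1% with the offsets. Library preparation and RNA source cannot be told apart in this design, and neither can cell composition.

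**Figure D2:**
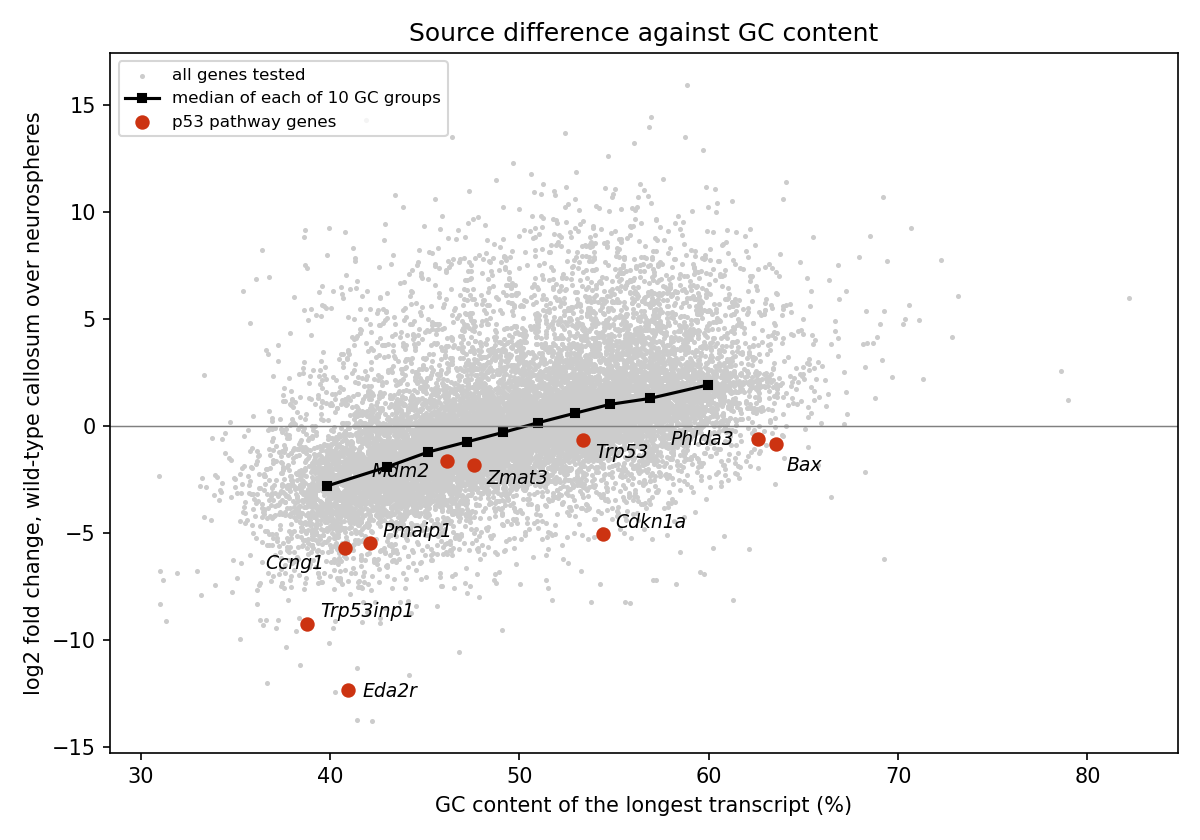
The log2 difference between wild-type callosum and wild-type neurospheres (vertical axis) is plotted against the GC content of the longest transcript in percent (horizontal axis) for all genes tested (grey), with the median of 10 equal GC groups (squares) and the 10 pathway genes (red). All 10 red points lie below the line of medians, and Cdkn1a lies far below genes of like GC content.

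Within the callosum, Cdkn1a had the largest genotype difference of the 10 genes, in the comparison taken as having guided their choice. It had 28.2, 30.6 and 27.4 CPM in the wild-type libraries (mean 28.7 ± 1.63, SD, n = 3) and 47.3 and 72.2 CPM in the Bmal1-/- libraries (mean 59.8 ± 17.6, SD, n = 2). Both Bmal1-/- libraries lay above all wild-type libraries, and they lay further from each other than the wild-type libraries did. The difference was 1.07 ± 0.17 (SE) in log2, 2.10-fold. Of the 9 genes tested, 1 was called higher and 0 lower, against a background of 0.521% called higher and 0.387% called lower among 14198 genes. Since the choice used this comparison, nothing is read from the count or from the call of Cdkn1a, here or in the alternatives. The call for Cdkn1a was lost without wild-type callosum replicate 1, 2 or 3, with log2 differences of 1.06, 1.12 and 1.03, and in 1 model of all 11 libraries, with 1.06. Without Bmal1-/- callosum replicate 1 or 2 the difference was 1.35 and 0.74. Leaving out a wild-type library thus ended the call, and leaving out a Bmal1-/- library changed the size.

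The other 8 tested genes were not called in callosum. Bax had 52.2 and 56.4 CPM in the Bmal1-/- libraries, above the wild-type range of 44.9 to 47.6 CPM (log2 0.24 ± 0.10, SE). Ccng1 had 13.5 and 12.5 CPM, below the wild-type range of 16.1 to 18.1 CPM (log2 -0.38 ± 0.14, SE). Zmat3 had 91.6 and 88.0 CPM, below 104 to 108 CPM (log2 -0.22 ± 0.09, SE). Non-overlapping ranges were common among all genes in this comparison of 3 with 2 libraries, 13.7% lying higher and 18.7% lower. Ranges overlapped for the other 5. Trp53 had 40.6 and 45.1 CPM (log2 -0.20 ± 0.12, SE), Mdm2 49.9 and 36.5 CPM (log2 -0.04 ± 0.21, SE) and Phlda3 59.5 and 69.0 CPM (log2 0.10 ± 0.12, SE). Pmaip1 had 1.34 and 0.490 CPM (19 and 7 counts) and differed by 0.62 ± 0.71 (SE) in log2. Trp53inp1 had 0.493 and 0.630 CPM (7 and 9 counts) and differed by -0.17 ± 0.54 (SE), and at these counts neither could show a difference of its own size. Eda2r, with 1 count in each Bmal1-/- library, was below the filter on low counts and was not tested. Genotype differences in callosum also moved with GC content (Spearman's rho 0.312 across 14125 genes), and with the offsets Cdkn1a differed by 1.02 in log2 and Bax by 0.07.

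Markers of other cells were summed beside the Cdkn1a difference. The 8 astrocyte markers summed to 2985 to 3236 CPM in wild-type and 4512 to 4863 CPM in Bmal1-/- callosum, none at 0. Within that list Gfap, the intermediate filament of astrocytes, was called higher and Aldh1l1 lower, and without Gfap the sums were 2560 to 2778 and 2636 to 2886 CPM. The 8 neural stem and progenitor markers summed to 355 to 456 CPM and 349 to 493 CPM, and of these Fabp7, a fatty acid binding protein of progenitors and glia, was called higher, by 3.27 ± 0.37 (SE) in log2. The 8 choroid plexus markers summed to 23.8 to 185 CPM in wild-type and 11.4 to 15.0 CPM in Bmal1-/- callosum. The 8 striatal neuron markers summed to 819 to 2700 CPM and 771 to 1004 CPM. The 8 proliferation markers summed to 31.7 to 47.7 CPM, with Ccnb1 at 0, and 32.8 to 34.6 CPM. The part of these cell markers in the Cdkn1a difference was not tested.

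In neurospheres none of the 10 genes was called between genotypes. The background was 0.00716%, 1 of 13968 genes in edgeR's quasi-likelihood test, with 422 genes at an unadjusted p under 0.05 and 34 called by DESeq2. None of the 10 was among the 422. Cdkn1a had 1043, 927 and 992 CPM in the Bmal1-/- libraries, within the wild-type range of 697 to 1126 CPM. Its difference was 0.02 ± 0.22 (SE) in log2 (edgeR adjusted p = 0.983), and -0.03 ± 0.21 (SE) without Bmal1-/- replicate 1, so a difference of the callosum's size was not seen, with an SE that leaves smaller ones undetectable. Mdm2 had 117, 119 and 117 CPM, below the wild-type 130 to 150 CPM, and was the gene of the 10 whose ranges did not overlap. It differed by -0.26 ± 0.15 (SE) in log2 (edgeR adjusted p = 0.798), and by -0.26 ± 0.10 (SE) without that replicate, while among all genes 5.74% lay lower and 6.29% higher without overlap.

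For each of the other 8 genes Bmal1-/- replicate 1, the library that stood apart, was the highest or the lowest of its group. Bax had 175, 79.8 and 92.8 CPM in the Bmal1-/- libraries, Phlda3 159, 98.6 and 104 CPM and Trp53 114, 79.6 and 80.7 CPM, with replicate 1 highest each time. Their log2 differences were 0.48 ± 0.29, 0.37 ± 0.23 and 0.21 ± 0.19 (SE), and 0.05, 0.12 and 0.02 without that library. Replicate 1 was the lowest for the other 5. Eda2r had 61.9, 125 and 155 CPM, Ccng1 600, 784 and 874 CPM and Zmat3 208, 353 and 349 CPM. Trp53inp1 had 199, 312 and 390 CPM and Pmaip1 19.2, 23.2 and 27.7 CPM. Pmaip1 spread more widely in the wild-type libraries, from 18.9 to 33.6 CPM. Log2 differences were -0.46 ± 0.33 for Eda2r, -0.29 ± 0.19 for Ccng1, -0.35 ± 0.23 for Zmat3, -0.40 ± 0.25 for Trp53inp1 and -0.23 ± 0.25 for Pmaip1 (SE). Without replicate 1 they were -0.17, -0.15, -0.14, -0.17 and -0.11 in the same order. The edgeR adjusted p was 0.798 for each of the 8 genes. Summed neural stem and progenitor markers did not overlap between the genotypes, at 3062 to 3644 CPM in wild-type and 3786 to 4608 CPM in Bmal1-/- neurospheres. None of the 8 was called and their median log2 difference was -0.02, so the sum does not stand for each marker. The part of these markers in the values above was not tested. Across 13898 genes the genotype difference in neurospheres moved with transcript length (Spearman's rho -0.583) and with GC content (0.269). With offsets for both, Bax, Phlda3 and Zmat3 differed by -0.01, -0.02 and -0.01 in log2, turning the sign of Bax and Phlda3, and Cdkn1a by -0.15.

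**Figure D3:**
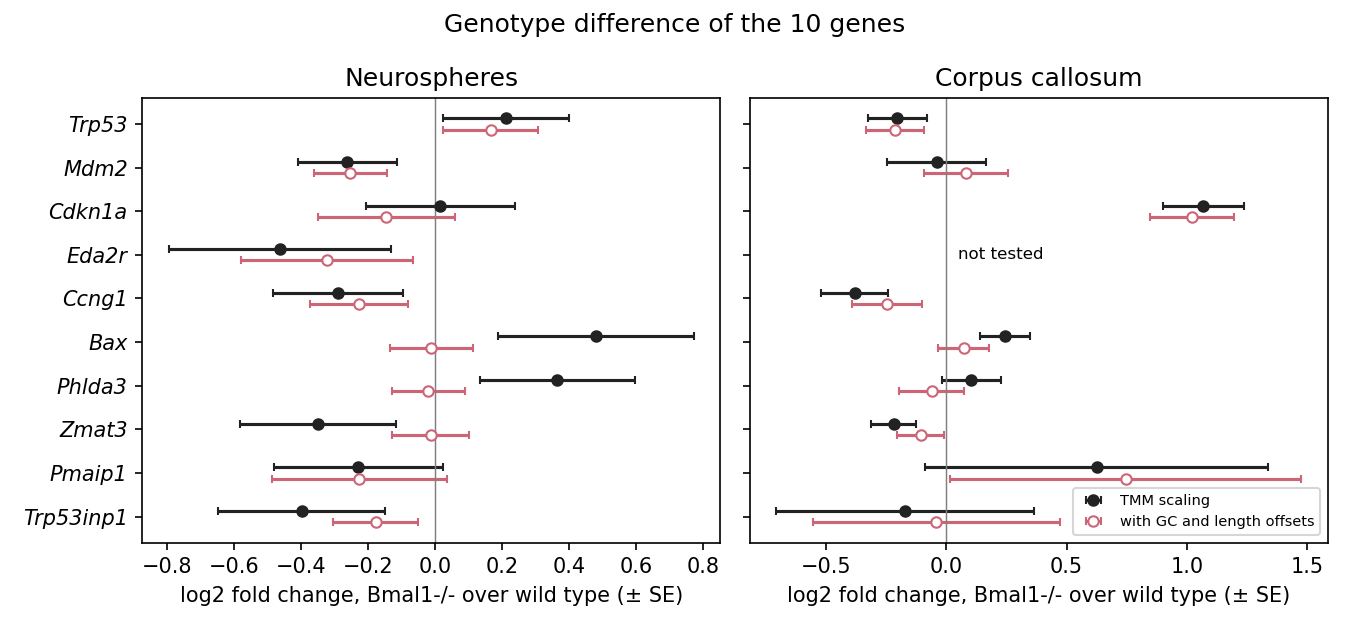
The log2 fold change of Bmal1-/- over wild type (horizontal axis, ± SE) is plotted for the 10 genes in neurospheres (left, 3 against 3 libraries) and callosum (right, 3 against 2 libraries), with TMM scaling (filled) and with GC and length offsets (open). Cdkn1a in callosum, at 1.07, stands apart from the other genes under both scalings, while Bax and Phlda3 in neurospheres move to near 0 with the offsets, and Eda2r in callosum was not tested.

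The genotype by source interaction, fitted over all 11 libraries, asks whether the genotype difference in callosum differs from that in neurospheres. None of the 10 genes was called, against a background of 0.0131%, 2 of 15322 genes. For Cdkn1a the difference of differences was 1.04 ± 0.30 (SE) in log2, given without a p because it uses the callosum libraries that guided the choice of genes. The other values ran from -0.43 ± 0.25 for Trp53 to 0.84 ± 0.73 for Pmaip1 (SE), with Eda2r at 1.84 ± 1.95 on 3 counts in all of the callosum, and the edgeR adjusted p was 0.999 for each. A genotype difference of Cdkn1a particular to the callosum was therefore not shown with these libraries, and neither was its absence.

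The wider pathway was described with 3 lists, also drawn up with earlier results known. Regulators of p53 numbered 17, other p53 targets 39, and relatives of the 10 genes 19. Between genotypes none of these was called in either source. This held for 16, 39 and 18 genes tested in neurospheres and 15, 37 and 17 in callosum, against 0.00716% and 0.909% of all genes. Without Bmal1-/- neurosphere replicate 1 none was called either. Mdm4, which binds and restrains p53 beside MDM2, had 157, 175 and 167 CPM in the wild-type neurosphere libraries and 64.7, 150 and 164 CPM in the Bmal1-/- ones, replicate 1 lying far below the others. Its log2 difference there was -0.40 ± 0.32 (SE), and -0.09 ± 0.10 (SE) without that library, while in callosum the wild-type level was 18.4 ± 4.29 CPM (SD, n = 3) and the Bmal1-/- level 14.8 ± 0.0300 CPM (SD, n = 2). Cdkn1b and Cdkn1c, the other inhibitors of the Cdkn1a family, differed between callosum genotypes by 0.05 ± 0.11 and -0.08 ± 0.21 (SE) in log2, neither called. No difference between the 3 genes was tested. Rprm, another cell cycle inhibitor among the p53 targets, chosen here after its values were seen, had 140, 137 and 191 CPM in wild-type and 415 and 255 CPM in Bmal1-/- callosum. Its difference, 1.12 ± 0.23 (SE) in log2, was as large as that of Cdkn1a and was not called (edgeR adjusted p = 0.0866). Among the regulators Atr and Chek2 differed as far the other way, by -1.47 ± 0.66 and -1.08 ± 0.45 (SE), neither called. Both were at low levels, 0.805 and 1.44 CPM in wild-type callosum. Of the regulators tested in callosum 5 lay above 0 and 10 below, and of the other targets 17 and 20.

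Between wild-type sources 3 of 16 regulators were called higher in callosum and 12 lower, that is 18.8% and 75%, against 42% and 43.8% of all genes tested, with a median log2 difference of -2.33 against -0.06. The kinases of the DNA damage response Atr and Atm were lower, with log2 differences of -6.20 and -3.95. So was the checkpoint kinase Chek1 (15.2 against 0.0924 CPM, on 1, 0 and 3 counts). Cdkn2a, whose locus encodes an inhibitor of MDM2, was also lower (12.5 against 0.228 CPM, on 3, 4 and 3 counts). Chek1 and Cdkn2a passed the filter on low counts only through neurospheres and could only be called lower, so the shares are descriptions. Mdm4 differed by -3.16 in log2, and 7.30% of its 50-base stretches are shared with another gene, mostly Mdm4-ps. Trp73, a member of the p53 family, was higher at 4.91 against 0.909 CPM, and Wrap53 and Hipk2 were higher by 1.32 and 0.32 in log2. With the GC and length offsets Wrap53 and Hipk2 turned to -0.10 and -0.81, and Trp73 fell from 2.44 to 0.65 ± 0.36 (SE) in log2. Another regulator, Rfwd2, turned from -2.34 to 0.50. The counts became 1 higher and 13 lower (6.25% and 81.2%, against 34.2% and 47.1% of all genes). The median was -0.93 against -0.30. An exon of Trp73 is overlapped by Trp73os on the opposite strand and one of Atr by 1700065D16Rik and Gm16794.

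Of the other p53 targets, 9 of 39 were called higher in callosum and 22 lower. That is 23.1% and 56.4%, against 42% and 43.8% of all genes tested, with a median log2 difference of -0.94 against -0.06. The death receptors Fas (18.7 against 0.0903 CPM, on 1, 3 and 0 counts) and Tnfrsf10b (45.5 against 0.388 CPM) were lower, as were Apaf1, the scaffold of the apoptosome, at a log2 difference of -4.93 and the DNA polymerase gene Polk at -4.50. Fas likewise passed the filter on low counts only through neurospheres. Of Tnfrsf10b, 5.80% is shared with another gene, mostly Gm15574. Rprm was higher by 3.90, the phospholipid transfer protein gene Pltp by 3.38, the kinase gene Plk3 by 2.88 and Zfp365 by 2.82. The targets thus moved both ways between sources. With the offsets 9 were higher and 23 lower (23.1% and 59.0%, against 34.2% and 47.1% of all genes). The median was -1.31 against -0.30, and all 8 genes named here kept their sign. Exons of Pltp and Plk3 are overlapped on the opposite strand by Ctsa and Tctex1d4.

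**Figure D4:**
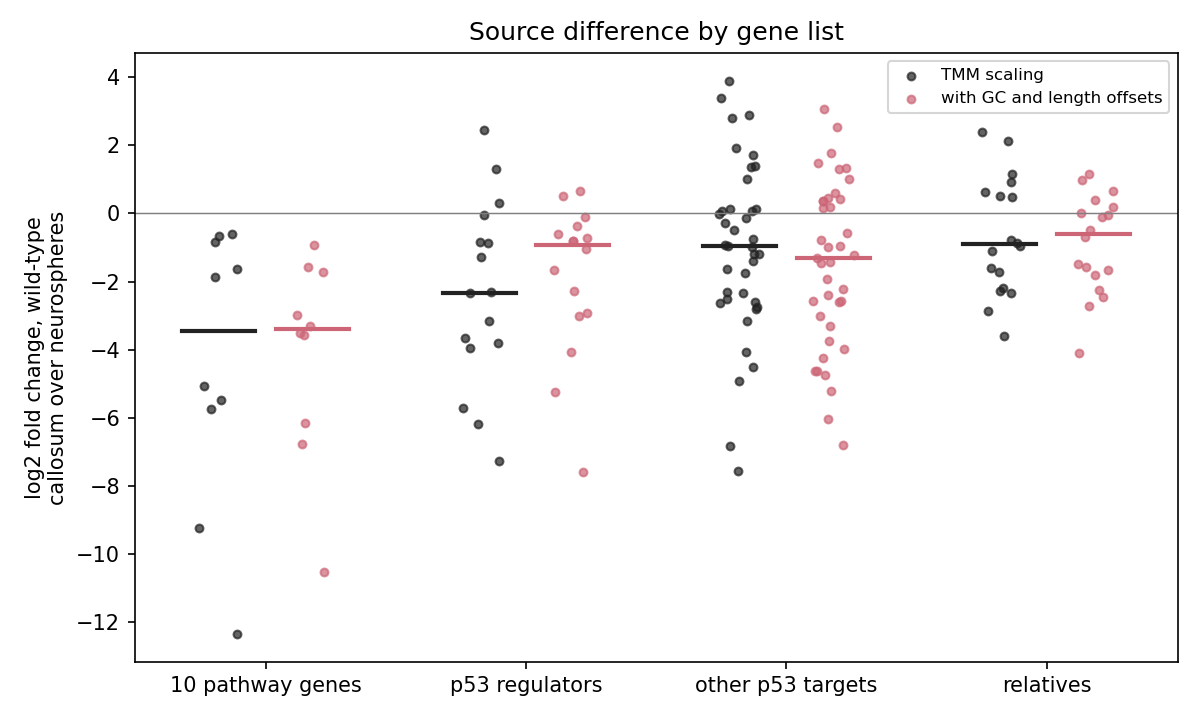
The log2 difference between wild-type callosum and wild-type neurospheres (vertical axis) is plotted per gene for the 10 pathway genes, p53 regulators, other p53 targets and relatives of the 10 genes, with TMM scaling (black) and with GC and length offsets (red), lines marking medians. Every one of the 10 genes lies below 0 under both scalings, while each other list spreads to both sides of 0.

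Genes whose levels followed those of Cdkn1a, Eda2r or Trp53 most closely were ranked by Pearson's r of log2 CPM over the 11 libraries, each source centred on its own mean. For Cdkn1a, Osgin1 (r = 0.986), Col16a1 (0.969) and Banp (0.949) came first of 12952 genes. Osgin1 differed between callosum genotypes by 1.33 in log2, beside 1.07 for Cdkn1a. Centring by source leaves genotype differences in r, so this is not a separate observation. Of the other pathway genes tested in both sources, Phlda3 and Bax came nearest to Cdkn1a, with r = 0.393 and 0.339. Their ranks were only 1429 and 1838, and Trp53 had r = -0.12. Eda2r, not tested in callosum and so not ranked here, had r = 0.403 with Cdkn1a. For Trp53 the leading genes were Nme6 (r = 0.983), Bcap31 (0.966) and Fam162a (0.957). For Eda2r they were Dnajc1 (r = 0.975), Apaf1 (0.969) and G2e3 (0.953). The likeness for Eda2r rests on neurospheres, since its callosum values are at 0 or 1 count. These are the highest of many correlations over 11 libraries that share depth and preparation, including the neurosphere library that stood apart, and carry no test.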

How the data were processed

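Per the labels' protocols, RNA was extracted with TRIzol, either selected with oligo-dT or depleted of rRNA (the labels do not say which), and sequenced on the BGISEQ-500. Reads were aligned with STAR 2.7.1a to mm10, per the submitters' processing notes. For the gene annotation used in counting, the sources used here name none. The deposited files hold raw read counts per gene, as the authors made them. Counts ignoring strand were used. The deposited counts of each strand served only to give the share on the first strand, 49.6% to 50.8%. Reads mapping to several places are listed at 0. The 4 unassigned rows (unmapped reads 7.77% to 22.6%, reads outside genes 8.55% to 16.6%, ambiguous reads 0.772% to 1.40%) entered neither library sizes nor tests.

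Groups follow the labels. Tests were two-sided and used edgeR 4.0.16 (quasi-likelihood F test, R 4.3.3) with TMM, filterByExpr and Benjamini-Hochberg adjustment over all genes, called at 0.05, and the SE is the log2 fold change over the root of F. Genotype was fitted within a source, the source difference on wild-type libraries, and the interaction on all 11 libraries. CPM values are counts per library size scaled by TMM over all 11 libraries. Alternatives were no filter, RLE scaling instead of TMM, DESeq2 1.42.0 and limma-voom (limma 3.58.1). Others were a replicate block, 1 model of all libraries, and leaving out each library. Added after the data were seen were library size alone and per-gene offsets from splines of GC content and log length. Both came from the longest transcript in GENCODE M21, found for 98.6% of symbols. The fits were tested on simulated data. Replicate pairs differed by 6.85 to 132 chi-square units per degree of freedom, above sampling noise, so each library was kept. Positions and promoters are from RefSeq, GRCm38.p6, the assembly of mm10.

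The 10 genes and all lists were chosen with earlier results of these data known. Named genes were the 10 genes, Arntl, Wrap53, Mdm4, Cdkn1b and Cdkn1c, of each other pathway list up to 4 called genes per direction with the largest log2 fold change, and the 3 genes most like Cdkn1a, Eda2r and Trp53. Of 10 lists of cell markers, those not printed with the results are given in the last section.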

Additional observations from a re-analysis of the deposited data

How the results depend on the processing

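Between wild-type sources, all 140 recomputed values of the 10 genes kept direction and call. For genotype in neurospheres, 1 gene was called, against 5 with no filter on low counts, 34 with DESeq2, 2 with limma-voom, 19 in 1 model of all libraries, 4 with the GC and length offsets and 1 to 5 when a library was left out. For genotype in callosum 129 genes were called, against 224 with no filter, 330 with DESeq2, 33 in 1 model and 27 to 192 when a library was left out. Of the 10 genes, 1 was called there, against 0 in 1 model and 0 to 1 when a library was left out. For the interaction 2 genes were called, against 37 with DESeq2, 11 with the offsets and 1 to 10 when a library was left out. Correlations of same-numbered deviations were 0.276, -0.00265 and 0.284 in neurospheres and 0.0347 and 0.00329 in callosum. Differently numbered neurosphere libraries gave -0.37 to 0.251. These values do not settle whether the replicate numbers pair the samples, and the main fits used no pairing. With the replicate number as a block, 2 genes were called in neurospheres and 1 in the interaction, and no call among the 10 genes changed. Directions of genes that were not called turned with the offsets in neurospheres for Cdkn1a (-0.15), Bax (-0.011) and Phlda3 (-0.020), in callosum for Mdm2 (0.082) and Phlda3 (-0.062), and in the interaction for Bax (0.028) and Zmat3 (-0.082). When a library was left out, log2 values spanned 0 in neurospheres for Cdkn1a (-0.17 to 0.13), and in callosum for Mdm2 (-0.28 to 0.18) and Pmaip1 (-0.26 to 1.18). In the interaction they spanned 0 for Bax (-0.49 to 0.19), Zmat3 (-0.083 to 0.23), Mdm2 (-0.035 to 0.42), Ccng1 (-0.23 to 0.0013), Pmaip1 (-0.049 to 1.78) and Trp53inp1 (-0.076 to 0.51). The cause of these changes was not tested. Depth limits Eda2r, Pmaip1 and Trp53inp1 in callosum, where each had at most 19 counts in a library.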

Other observations

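Relatives of the 10 genes moved both ways between wild-type sources. Of 18 tested, 5 were called higher in callosum and 11 lower, that is 27.8% and 61.1%, against 42% and 43.8% of all genes, with a median log2 difference of -0.90 against -0.06. In the BCL2 family, to which Bax belongs, the survival gene Bcl2l1 was at 48.4 CPM in neurospheres and 249 CPM in callosum, and Bok at 9.75 and 42.6 CPM, while Bcl2l11, which encodes the BH3-only protein BIM, was at 33.3 and 4.49 CPM. In the ectodysplasin pathway, Traf6, a signalling adaptor, was at 63.4 CPM in neurospheres and 12.3 CPM in callosum. Edaradd, an adaptor of the related receptor EDAR, was at 0.926 and 0.183 CPM, the latter on 3, 3 and 2 counts. It passed the filter on low counts only through neurospheres. Phlda1 and Trp53inp2, relatives of Phlda3 and Trp53inp1, were called higher in callosum by 1.15 and 0.91 in log2, and Zmat1, a relative of Zmat3, was called lower at -3.59. With the GC and length offsets 3 were called higher and 9 lower (16.7% and 50%, against 34.2% and 47.1% of all genes), and Bok, Phlda1 and Trp53inp2 stood at 0.01, -0.70 and -0.04. Cdkn1b, called lower in callosum at -1.11, stood at 0.41 with the offsets, and Cdkn1c was at 32.9 CPM in neurospheres and 7.18 CPM in callosum, where an exon is overlapped by Gm44732 on the opposite strand.

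The other marker lists gave these summed levels. Oligodendrocyte markers were at 1402 to 2419 CPM in neurospheres and 22404 to 34984 CPM in callosum. Microglia markers were at 41.5 to 150 CPM and 391 to 456 CPM, and endothelial markers at 5.62 to 13.6 CPM, with Ly6c1 at 0, and 160 to 242 CPM. Ependymal markers overlapped between sources, at 83.2 to 116 CPM and 88.2 to 184 CPM. Striatal neuron markers were at 36.3 to 51.5 CPM in neurospheres, choroid plexus markers at 0.929 to 1.25 CPM with Ttr at 0, and astrocyte markers at 4749 to 6081 CPM. The part of these cells in the source differences cannot be told apart from source.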
